A study of Homo sapiens with 4 samples.

Results

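The 46 genes described here encode the machinery that copies DNA in S phase. They were chosen by symbol from the 58174 genes in the data. The choice covered origin licensing, the replication fork, nucleotide synthesis and 2 activating E2F factors, E2F1 and E2F2. All 46 were found, and all 46 passed the filter on low counts. They were measured by RNA-seq of total RNA in 2 EED-knockout and 2 wild type libraries of Daoy, an established human medulloblastoma cell line. EED belongs to the core of Polycomb repressive complex 2, the enzyme behind the silencing mark H3K27me3, and the design set cells with mutant EED against cells with wild type EED. No drug treatment, time course or further allele is named in the labels, which also do not say how the knockout was made, whether it is 1 clone or a pool, or whether each library was a culture of its own. The p-values therefore reflect only how far these libraries spread, and the labels do not say how much of that spread is technical.

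Replication begins at origins bound by the origin recognition complex (ORC). CDC6 and CDT1 load the MCM2-7 ring there in G1 phase, and in S phase CDC45 and the GINS complex turn that ring into the active helicase. Polymerase alpha and its primase start each strand, polymerases epsilon and delta extend the leading and lagging strands, and the PCNA clamp, placed by replication factor C (RFC), holds the polymerases on DNA. Many of these genes are transcribed as cells pass from G1 into S phase, when E2F factors are released from the retinoblastoma protein RB. In bulk RNA, fewer cells in S phase and less RNA per cell cannot be told apart.

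The promoters are shown first because many of these genes are textbook E2F targets. Promoter windows of 250 bases before and 50 bases after a start site came from RefSeq on GRCh38.p14, and 40 of the 46 genes had one. The windows were searched on both strands for 4 E2F words (TTTCCCGC, TTTGGCGC, TTTCGCGC and TTTGCCGC), for CCAAT, for the GC box GGGCGG and for the cell cycle homology region (CHR) words TTTGAA and TTCGAA. An E2F word was present in 21 of the 40 genes (52.5%), against 3.99% of 27305 genes with a window and 6.2% of the 11784 of those that were tested for expression. Of the 28 E2F matches, 22 began within 100 bases of the start site, and in 3 genes an E2F match overlapped a match to another motif. CCAAT was present in 62.5% of the 40 genes and in 42.8% of tested genes, and the GC box in 72.5% and 74.2%. A CHR word, an element known from promoters of mitotic genes, was present in 2 of the 40 genes (5.0%), against 72.7% of 22 mitosis genes and 15.8% of tested genes. A match describes letters in these windows and does not show that a factor binds there.

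Of the MCM2-7 genes, MCM4 and MCM5 had no window. MCM3, MCM6 and MCM7 held further E2F matches that are not shown. The 4 E2F matches below are those nearest the start site, in capitals with any overlapping E2F match and with 8 bases on either side. They lie at chr3:127598405-127598432 on the plus strand (MCM2), chr6:52284731-52284754 on the minus strand (MCM3), chr2:135876514-135876541 on the minus strand (MCM6) and chr7:100101391-100101414 on the minus strand (MCM7), and each is written 5′ to 3′ along its gene. The last base of the MCM7 word is also the first of a CCAAT match, left in lower case.
MCM2: gaaccactTTTCGCGCGAAAcctggttg
MCM3: tcggaagtTTTCGCGCcggggtgg
MCM6: tggtcaggTTTGGCGCGAAAtctccagc
MCM7: gggcgacgTTTCGCGCcaatttcg

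Promoters of the 4 genes with the lowest edgeR p-values of the 46 are shown whole, with E2F and CCAAT matches on either strand in capitals and each written 5′ to 3′ along the gene, on the minus strand of GRCh38.p14. TK1 lies at chr17:78187003-78187302, E2F1 at chr20:33686336-33686635, ORC1 at chr1:52404374-52404673 and ORC5 at chr7:104207964-104208263.
TK1: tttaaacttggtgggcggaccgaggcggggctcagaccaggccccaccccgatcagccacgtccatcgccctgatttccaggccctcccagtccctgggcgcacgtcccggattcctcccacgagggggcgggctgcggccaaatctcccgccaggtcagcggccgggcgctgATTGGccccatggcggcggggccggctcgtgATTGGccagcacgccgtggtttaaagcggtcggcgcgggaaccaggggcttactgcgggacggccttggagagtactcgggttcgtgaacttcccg
E2F1: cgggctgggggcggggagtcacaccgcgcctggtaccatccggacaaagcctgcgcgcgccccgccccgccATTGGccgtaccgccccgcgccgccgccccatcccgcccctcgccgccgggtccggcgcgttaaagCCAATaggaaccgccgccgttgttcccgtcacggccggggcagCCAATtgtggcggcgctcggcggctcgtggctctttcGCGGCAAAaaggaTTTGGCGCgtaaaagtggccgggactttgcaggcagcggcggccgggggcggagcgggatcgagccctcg
ORC1: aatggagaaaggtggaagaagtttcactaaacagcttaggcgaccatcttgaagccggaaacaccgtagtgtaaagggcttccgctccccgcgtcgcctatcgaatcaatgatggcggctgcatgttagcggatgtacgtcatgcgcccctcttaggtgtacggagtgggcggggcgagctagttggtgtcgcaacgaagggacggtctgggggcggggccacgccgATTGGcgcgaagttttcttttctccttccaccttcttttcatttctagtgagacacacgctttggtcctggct
ORC5: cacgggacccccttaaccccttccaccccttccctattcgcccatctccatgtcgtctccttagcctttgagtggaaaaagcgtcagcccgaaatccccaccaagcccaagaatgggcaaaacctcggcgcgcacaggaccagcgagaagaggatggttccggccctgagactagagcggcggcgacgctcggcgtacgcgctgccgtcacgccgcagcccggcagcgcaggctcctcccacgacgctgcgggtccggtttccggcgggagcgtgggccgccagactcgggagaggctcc
The E2F1 window held 2 E2F words on opposite strands and 3 CCAAT matches, so the gene for an E2F factor itself carries the E2F letters near its start. The TK1 window shown held 2 inverted CCAAT matches and no E2F word, and the ORC1 window held 1 inverted CCAAT match. The ORC5 window held none of the letters searched, which says only that they are not in this window.

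The libraries held 19022736 and 18164045 estimated counts in EED-knockout cells and 19106382 and 17836112 in wild type cells. The biological coefficient of variation was 0.332 between the knockout libraries and 0.205 between the wild type libraries. The endothelial markers KDR and TEK had 1782 and 286 counts in EED-knockout 1, against 7 and 1 in EED-knockout 2. The source of this difference was not tested. EED itself had 17.9 and 26.2 CPM in the knockout libraries, against 34.5 and 27.7 CPM in wild type. It was lower without overlap, as were 18.0% of all genes, but EED-knockout 2 lay close to wild type 2. The edgeR adjusted p of EED was 0.878. Since the labels do not give the allele, the EED level checks them only weakly. Neural progenitor markers summed to 3474 and 3408 TPM in the knockout libraries, against 3347 and 3122 TPM in wild type, nearly all of it VIM, which other cell types express too. Granule lineage markers summed to 86.03 and 65.12 TPM in the knockout libraries, against 61.11 and 74.88 TPM in wild type. Of the 7, 4 passed the filter on low counts, with mean levels of 32.3 TPM for ZIC1, 21.81 for ZIC2, 13.03 for PAX6 and 4.31 for MEIS1. BARHL1 (mean 0.24 TPM) and NEUROD1 (mean 0.09 TPM) did not pass it. ATOH1, a defining marker of granule cell progenitors, had 0 counts in all 4 libraries, as did the T cell marker CD3E. Fibroblast markers summed to 1020 and 821.4 TPM in the knockout libraries, against 522.0 and 961.7 TPM in wild type, blood markers to 1.43 and 1.49, against 0.64 and 2.55, endothelial markers to 37.8 and 0.59, against 4.31 and 6.76, neuron markers to 15.7 and 7.41, against 9.88 and 12.7, and epithelial markers to 647.8 and 625.4, against 504.8 and 740.4, and their part in the result was not tested.

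No replication gene passed the test, and most were higher in the EED-knockout libraries. Of the 46, 30 had a log2 fold change above 0 and 16 below it, which is 65.2% above 0 against 50.9% of all 18349 genes tested. Their median log2 fold change was 0.22, against 0.01 over all genes. In edgeR, 0 replication genes passed an adjusted p of 0.05, the smallest being 0.799, and edgeR called 0.0% of all genes. DESeq2 called 0 of the 46 and 0.371% of all genes. At an unadjusted edgeR p under 0.05, 2 were higher (TK1 and E2F1) and 1 was lower (ORC5), against backgrounds of 2.85% of genes higher and 3.05% lower. The 95% interval of the log2 fold change included 0 for 43 of the 46 genes, and the bounds of all intervals ran from -1.04 to 1.15. The median was lower by over 1.5 times under 3 other settings. It was 0.12 with length-scaled TPM counts, 0.12 after each chromosome arm was centred in each library and 0.12 without wild type 2. Without EED-knockout 1 it was 0.16.

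For 21 of the 46 genes both knockout libraries exceeded the higher wild type library in CPM, counts scaled to library size with TMM factors, where 17.8% of all genes did so. Both lay below for 4 genes, where 18.0% of all genes did so, and the genotypes overlapped for 21. The 4 genes below were ORC3, ORC5, PRIM1 and PRIM2, of which ORC3 and PRIM1 are named only after their values were seen. Without EED-knockout 1 the counts were 27 above and 11 below (35.2% and 36.1% of all genes), and without EED-knockout 2 they were 28 and 10 (38.5% and 38.7%). Without wild type 1 they were 27 and 4 (27.8% and 28.4%), and without wild type 2 they were 23 and 12 (33.2% and 33.8%). An exact permutation test of 2 against 2 libraries cannot give a two-sided p below 0.33, so the non-overlap of any 1 gene is a description.

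**Figure D1:**
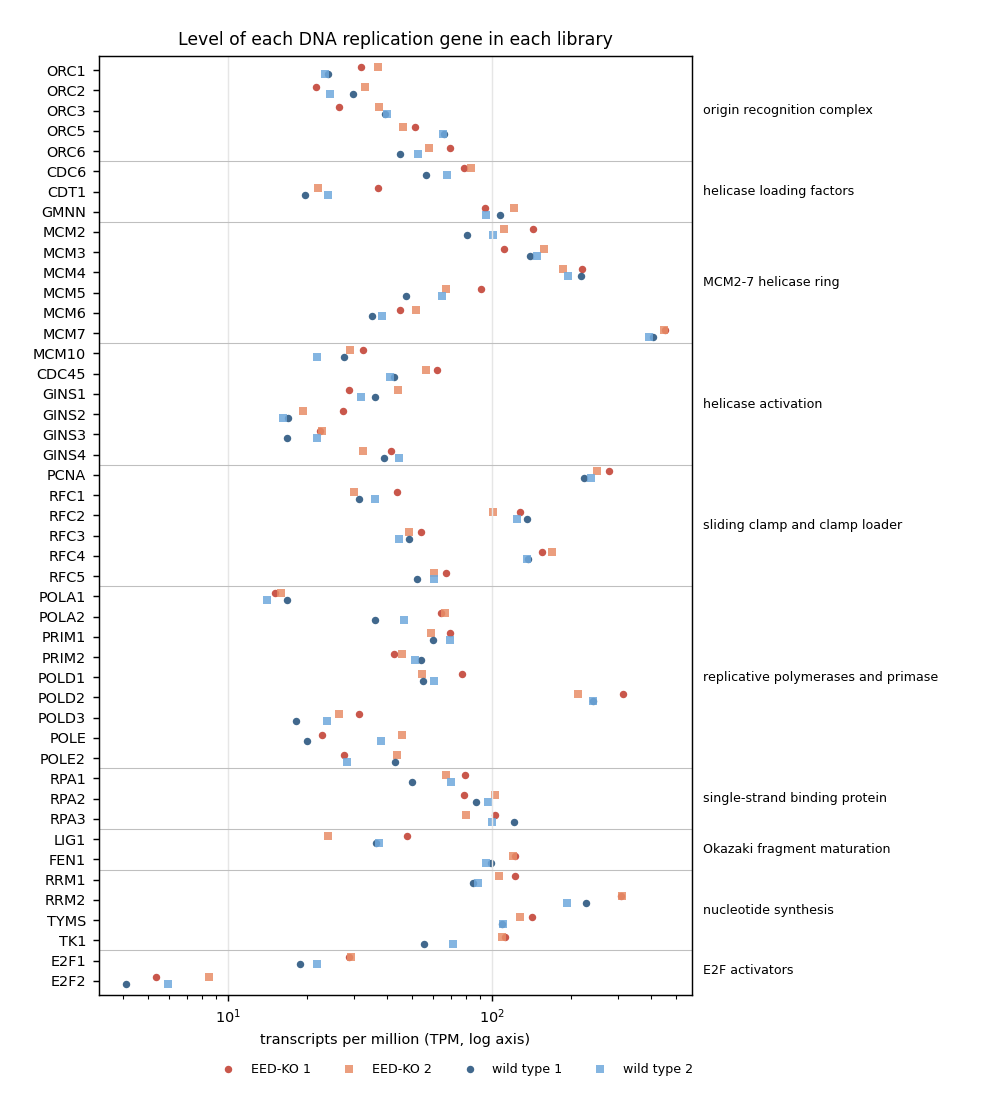
Level of each of the 46 genes in TPM (a level per transcript length, log axis), ordered by role, with 1 point for each of the 2 EED-knockout and 2 wild type libraries. MCM7 had the highest mean level, 426.1 TPM, and E2F2 the lowest, 5.98 TPM, and within a gene the libraries lie close together compared with the range between genes.

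Levels between genes were compared per length, in TPM. The 46 genes together held 4231 and 3981 TPM in the EED-knockout libraries, against 3564 and 3616 TPM in the wild type libraries. Both knockout sums lay above both wild type sums. In log2(TPM + 1) the median difference was 0.21 for the 46 genes and 0.07 over all genes tested, of which 59.8% were higher. On this scale 22 genes lay above and 3 below without overlap, where 23.4% and 12.9% of all genes did so. The plot of levels by gene shows that the order of the genes was set by the gene far more than by the genotype. The lowest count of any of these genes in any library was 257 and the highest 15947, so none was near the floor of 3 counts.

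The 5 ORC genes differed in direction. ORC1, the subunit that is best known for cycling with the cell cycle, had 67.8 and 79.2 CPM in the knockout libraries, against 56.5 and 50.2 CPM in wild type. The libraries did not overlap, and the log2 fold change was 0.46 (95% interval -0.001 to 0.924, edgeR adjusted p = 0.847). ORC5, a core subunit of the complex, had 55.2 and 46.7 CPM in the knockout libraries, against 80.8 and 70.9 CPM in wild type. Both knockout libraries were lower, at a log2 fold change of -0.57 (95% interval -1.04 to -0.10, edgeR adjusted p = 0.808), the lowest fold change of the 46. ORC3, another core subunit, had 33.9 and 44.4 CPM in the knockout libraries, against 57.0 and 51.3 CPM in wild type, and did not overlap either. ORC6 lay above in both knockout libraries and ORC2 overlapped, so the median log2 fold change of the 5 genes was -0.13. Their summed level was 200.9 and 211.7 TPM in the knockout libraries, against 203.9 and 205.6 TPM in wild type, with the knockout sums on either side of the wild type sums.

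Among the helicase loading factors, CDT1, which brings MCM2-7 to ORC, had 55.24 and 40.88 CPM in the knockout libraries, against 34.02 and 40.87 CPM in wild type. EED-knockout 2 exceeded wild type 2 only in the last digit, and in TPM the genotypes overlapped. The log2 fold change of CDT1 was 0.36 (95% interval -0.19 to 0.91, edgeR adjusted p = 0.887), and it was 0.13 without EED-knockout 1, 0.24 without wild type 1 and 0.56 without EED-knockout 2. GMNN encodes geminin, which binds CDT1 and blocks a further round of loading, and had 58.0 and 75.3 CPM in the knockout libraries, against 75.2 and 60.9 CPM in wild type. Its libraries overlapped fully, and the sign of its fold change turned under 7 of 15 other settings. CDC6, the ATPase that works with ORC in loading, was higher in both knockout libraries.

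The MCM2-7 ring was split, with MCM2, MCM5, MCM6 and MCM7 above in both knockout libraries and MCM3 and MCM4 overlapping. Of all genes tested, 17.8% were above in both knockout libraries. MCM5 had 182.6 and 125.1 CPM in the knockout libraries, against 90.3 and 120.1 CPM in wild type, so EED-knockout 2 lay just above wild type 2. Its log2 fold change was 0.55 (95% interval -0.05 to 1.15, edgeR adjusted p = 0.855), 0.26 without EED-knockout 1 and 0.36 without wild type 1. MCM2 had 359.2 and 279.8 CPM in the knockout libraries, against 220.4 and 248.0 CPM in wild type. Both knockout libraries were higher, at a log2 fold change of 0.45 (95% interval -0.05 to 0.94, edgeR adjusted p = 0.857), and 0.26 without EED-knockout 1.

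MCM6 had 104.1 and 120.6 CPM in the knockout libraries, against 93.0 and 92.3 CPM in wild type, a log2 fold change of 0.28 that was 0.17 without EED-knockout 2. MCM7, the most abundant of all 46 genes per length, had 839.8 and 843.3 CPM in the knockout libraries, against 814.2 and 733.6 CPM in wild type. Neither gene overlapped, but MCM7 differed by only 0.12 on the log2 scale, less than the 0.15 between its own wild type libraries, and by 0.05 without wild type 2. MCM3 had 217.0 and 301.8 CPM in the knockout libraries, against 308.3 and 292.4 CPM in wild type, so its lower mean rested on EED-knockout 1, without which the log2 fold change was 0.01 rather than -0.21, and -0.47 without EED-knockout 2. MCM4 had 319.9 and 271.1 CPM in the knockout libraries, against 343.4 and 304.7 CPM in wild type, and its fold change of -0.13 on the log2 scale turned to 0.12 after its chromosome arm was centred and was -0.25 without EED-knockout 1 and -0.02 without EED-knockout 2. The 6 proteins form a ring with 1 copy of each, yet their transcript levels ran from 42.5 TPM (MCM6) to 426.1 TPM (MCM7) on average over the 4 libraries.

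**Figure D2:**
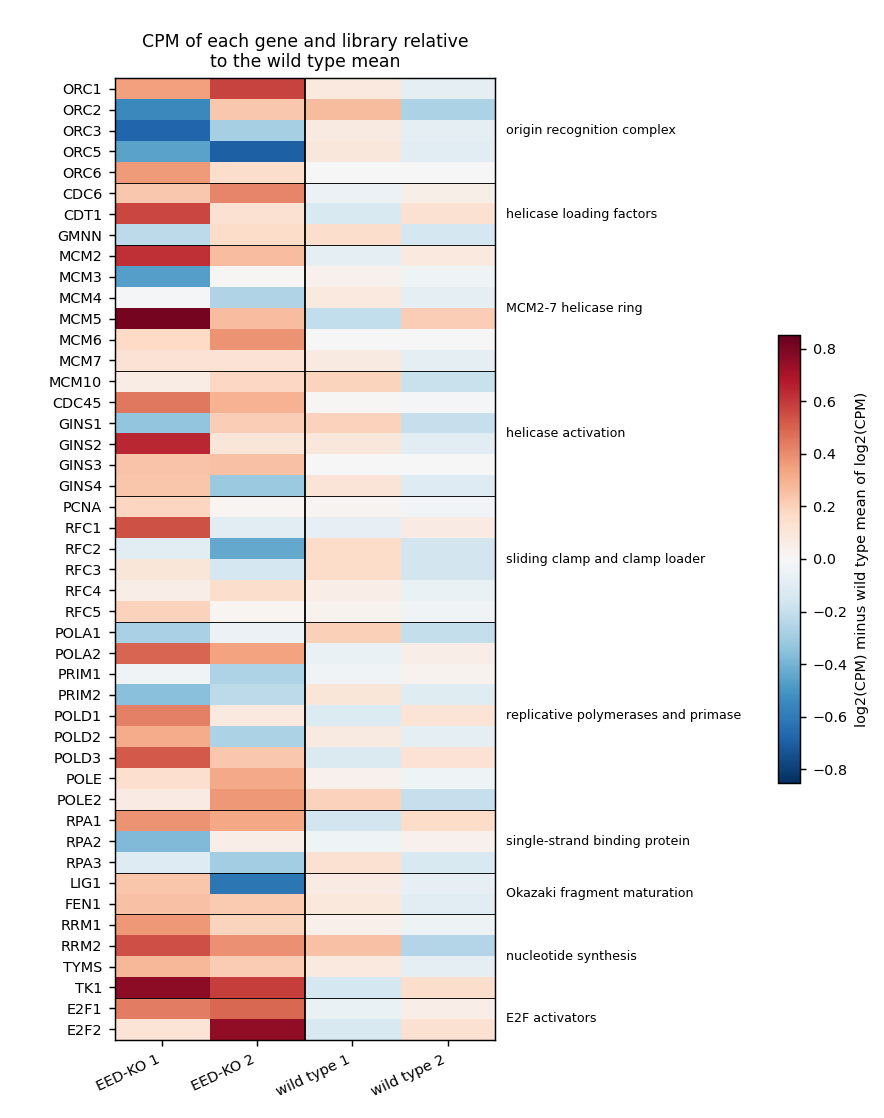
Difference of log2 CPM from the wild type mean for each gene (rows, ordered by role) and library (columns, the 2 EED-knockout libraries left of the 2 wild type libraries), red for higher and blue for lower. The 4 nucleotide synthesis genes are among those red in both knockout columns, and ORC3, ORC5, PRIM2, RFC2 and RPA3 are among those blue in both. Several genes such as RFC1 and LIG1 change colour between the knockout columns.

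Of the 6 genes that turn the loaded ring into a helicase, CDC45, GINS2 and GINS3 were above in both knockout libraries. The other 3 overlapped, and 17.8% of all genes were above in both knockout libraries. CDC45, which rides with the ring at the fork, had 65.9 and 59.3 CPM in the knockout libraries, against 48.6 and 48.0 CPM in wild type. The libraries of each genotype lay close together and apart from the other, at a log2 fold change of 0.37 (95% interval -0.07 to 0.81, edgeR adjusted p = 0.865), which was 0.12 after its chromosome arm was centred. GINS2 had 47.19 and 32.44 CPM in the knockout libraries, against 32.42 and 28.26 CPM in wild type, so EED-knockout 2 sat beside wild type 1 and the difference of 0.39 on the log2 scale was 0.10 without EED-knockout 1 and 0.64 without EED-knockout 2. GINS1, another subunit of the same tetramer, had 53.0 and 77.3 CPM in the knockout libraries, against 76.9 and 58.3 CPM in wild type. The log2 fold change of GINS1 was -0.05, and it was -0.35 without EED-knockout 2 and 0.20 without EED-knockout 1.

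The clamp and its loader were the role with no separation at all, since all 6 genes overlapped in CPM. Of all genes tested, 17.8% were above and 18.0% below without overlap. PCNA, the sliding clamp, had 205.7 and 183.9 CPM in the knockout libraries, against 184.2 and 179.1 CPM in wild type. The log2 fold change was 0.10 (95% interval -0.33 to 0.53, edgeR adjusted p = 0.965), an interval that leaves out a doubling in either direction, and it was 0.03 without EED-knockout 1. RFC1, the large subunit of the loader, had 105.1 and 67.9 CPM in the knockout libraries, against 68.6 and 75.8 CPM in wild type, a difference carried by EED-knockout 1: the log2 fold change of 0.26 was -0.08 without it and 0.54 without EED-knockout 2. RFC2 had 121.3 and 95.9 CPM in the knockout libraries, against 144.7 and 116.2 CPM in wild type, at a log2 fold change of -0.26. Its overlap was narrow. The fold change stayed below 0 in all 15 other settings but shrank to -0.09 without wild type 1 and -0.10 without EED-knockout 2. In TPM, PCNA, RFC4 and RFC5 were above in both knockout libraries, where 23.4% of all genes were.

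Of the 9 polymerase and primase genes, 3 were above in both knockout libraries, 2 were below and 4 overlapped. Of all genes tested, 17.8% were above and 18.0% below in this way. POLA2, the regulatory subunit of polymerase alpha, had 80.2 and 72.4 CPM in the knockout libraries, against 54.9 and 59.2 CPM in wild type. The genotypes did not overlap, and the log2 fold change of 0.42 (95% interval -0.02 to 0.86, edgeR adjusted p = 0.851) was the highest of the role. Its longest protein-coding transcript, POLA2-001, had 683.5 and 619.9 estimated counts in the knockout libraries, against 734.6 and 543.4 in wild type, and overlapped at a log2 fold change of -0.03. The retained-intron and nonsense-mediated-decay transcripts POLA2-002, POLA2-003 and POLA2-004 had log2 fold changes of 2.32, 0.97 and 0.67, with 95% intervals that included 0. These transcripts are named after their values were seen. Its partners in the same 4-subunit enzyme did not follow it. PRIM2, the large primase subunit, had 56.5 and 61.9 CPM in the knockout libraries, against 77.5 and 67.3 CPM in wild type, below in both and at a log2 fold change of -0.29, which was -0.18 without wild type 1 and -0.12 with its chromosome arm centred. PRIM1, the catalytic primase subunit, had 49.1 and 41.9 CPM in the knockout libraries, against 49.3 and 51.3 CPM in wild type, where the gap between EED-knockout 1 and wild type 1 was slight and the TPM values overlapped. POLA1, the catalytic subunit, overlapped at a log2 fold change of -0.17.

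In polymerase delta, POLD2, the accessory subunit with the highest level of the role at 252.3 TPM, had 302.5 and 201.2 CPM in the knockout libraries, against 255.5 and 230.7 CPM in wild type. The knockout libraries lay on either side of the wild type pair, and the log2 fold change was 0.05 (95% interval -0.52 to 0.62, edgeR adjusted p = 0.986), with -0.27 without EED-knockout 1 and 0.32 without EED-knockout 2. POLE, the catalytic subunit of polymerase epsilon, was above in both knockout libraries in CPM (77.4 and 87.6, against 71.9 and 68.1 in wild type), but its TPM values were 22.7 and 45.6 in the knockout libraries, against 19.98 and 38.2 in wild type. The scale thus decided whether POLE overlapped, and it is named after its values were seen.

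Replication protein A coats single-stranded DNA at the fork. RPA1, its large DNA-binding subunit, had 169.0 and 162.8 CPM in the knockout libraries, against 116.5 and 144.6 CPM in wild type. Both knockout libraries were higher in CPM, at a log2 fold change of 0.35 (95% interval -0.12 to 0.81, edgeR adjusted p = 0.881), but EED-knockout 2 lay below wild type 2 in TPM. The log2 fold change of RPA1 was 0.20 without wild type 1 and 0.15 with its chromosome arm centred. RPA3, the smallest subunit, had 35.3 and 31.1 CPM in the knockout libraries, against 41.6 and 34.9 CPM in wild type, overlapping narrowly at a log2 fold change of -0.20 that was -0.07 without wild type 1. For Okazaki fragments, the short pieces of the lagging strand, FEN1, the flap nuclease, had 180.8 and 178.0 CPM in the knockout libraries, against 161.7 and 143.3 CPM in wild type, with both knockout libraries higher by 0.23 on the log2 scale. This difference of FEN1 was 0.15 without wild type 2 and 0.13 with its chromosome arm centred. LIG1, the ligase that joins the fragments, had 77.7 and 43.0 CPM in the knockout libraries, against 69.2 and 62.8 CPM in wild type. The knockout libraries of LIG1 differed by 0.85 on the log2 scale, the widest gap within a genotype that the 46 genes showed, and its log2 fold change was -0.61 without EED-knockout 1 and 0.24 without EED-knockout 2.

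Nucleotide synthesis was the 1 role in which every gene, 4 of 4, was above in both knockout libraries, in CPM and in TPM, where 17.8% of all genes were in CPM and 23.4% in TPM. The 4 genes together held 686.9 and 653.7 TPM in the knockout libraries, against 478.5 and 463.2 TPM in wild type. TK1, the cytosolic thymidine kinase of the salvage pathway, had 110.4 and 97.9 CPM in the knockout libraries, against 58.8 and 72.3 CPM in wild type. This was the highest fold change of the 46, 1.59-fold or 0.67 on the log2 scale (SE 0.20, 95% interval 0.19 to 1.14), yet its edgeR adjusted p was 0.799 and its DESeq2 adjusted p 0.328. Over the 15 other settings the log2 fold change of TK1 ran from 0.53 to 0.82.

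RRM2, the small subunit of ribonucleotide reductase that cycles with S phase, had 516.3 and 462.1 CPM in the knockout libraries, against 419.8 and 296.0 CPM in wild type. The genotypes were apart, but the wild type pair was 0.50 apart on the log2 scale, more than the fold change of 0.45 (95% interval -0.10 to 1.00, edgeR adjusted p = 0.868), which was 0.22 without wild type 2 and 0.73 without wild type 1. RRM1, the large subunit of that enzyme, was higher by 0.28 on the log2 scale (95% interval -0.16 to 0.72, edgeR adjusted p = 0.888). This difference of RRM1 was 0.11 after its chromosome arm was centred. TYMS, thymidylate synthase, had 116.6 and 111.4 CPM in the knockout libraries, against 101.7 and 90.3 CPM in wild type, higher in both by 0.25 on the log2 scale, by 0.17 without wild type 2 and by 0.12 after its chromosome arm was centred. Of the exon bases of TYMS, 39.1% are shared with ENOSF1 on the opposite strand, which averaged 20.6 CPM. The sources used here do not say whether the kit keeps strand, so reads of such overlapping genes cannot be told apart; 12 of the 46 genes shared exon bases with another gene above 1 CPM.

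The 2 E2F activators among the 46 genes, E2F1 and E2F2, were both higher on average. E2F1, the factor that drives S-phase transcription, had 50.03 and 51.9 CPM in the knockout libraries, against 35.6 and 38.6 CPM in wild type. Both pairs were tight and apart, at a log2 fold change of 0.46 (95% interval 0.01 to 0.91, edgeR adjusted p = 0.835) that ran from 0.32 to 0.52 over the 15 other settings. E2F2 had 20.2 and 31.5 CPM in the knockout libraries, against 17.1 and 20.4 CPM in wild type. EED-knockout 1 lay between the wild type libraries, and the log2 fold change of 0.47 was 0.11 without EED-knockout 2 and 0.76 without EED-knockout 1.

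**Figure D3:**
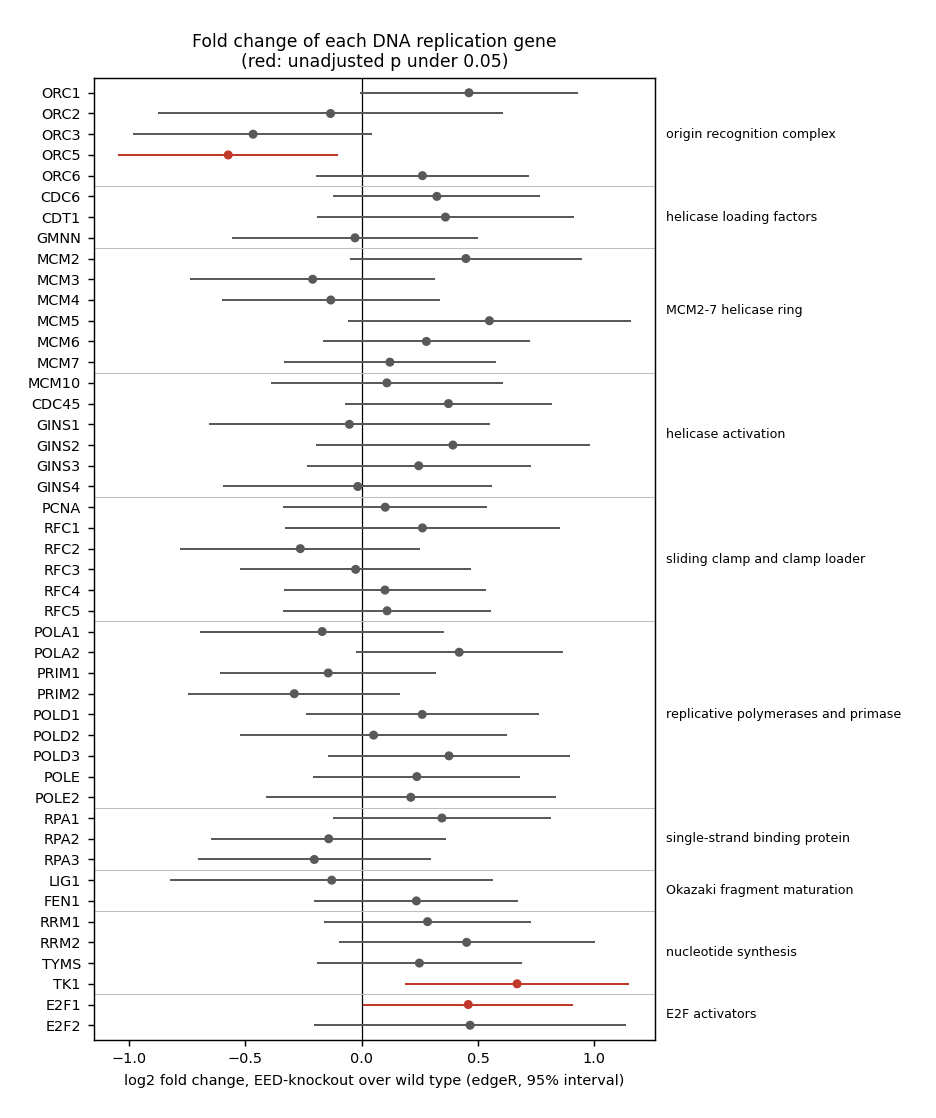
Log2 fold change (EED-knockout over wild type) of each of the 46 genes with its 95% interval from edgeR, ordered by role, with 0 marked by a line. The intervals of 43 genes cross 0, and those of TK1, E2F1 and ORC5 do not.

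Transcripts of the 46 genes were tested in the same way. Of 395 transcripts in the data, 189 passed the filter and 0 passed an adjusted p of 0.05 in edgeR, which called 0.0% of the 56858 transcripts tested. At an unadjusted p under 0.05, 4 were higher and 3 lower, against backgrounds of 2.21% and 2.43%. MCM5-001, a protein-coding transcript, had 2009 and 1368 estimated counts in the knockout libraries, against 816.2 and 1017 in wild type, and made up 57.9% and 58.4% of the counts of MCM5 in the knockout libraries, against 49.8% and 46.8% in wild type. Neither its counts nor its share overlapped, at a log2 fold change of 0.82 and an edgeR adjusted p of 0.988. ORC5-001 had 959.9 and 805.2 estimated counts in the knockout libraries, against 1393 and 1196 in wild type, so the lower level of ORC5 was present in the transcript that carried over 90% of its counts.

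Lists of related genes had medians nearer to 0. They were the other replication genes (35), the rest of the E2F and RB family (11) and mitosis genes (28), and edgeR called 0 genes in each, as DESeq2 did. The other replication genes had a median log2 fold change of 0.01, with 18 of 35 above 0, 9 above (25.7%) and 4 below (11.4%) without overlap, where 17.8% and 18.0% of all genes were, and 0 at an unadjusted edgeR p under 0.05. The mitosis genes had a median of 0.06, with 18 of 28 above 0. This share of 64.3% was close to the 65.2% of the 46 genes, where 50.9% of all genes were above 0. Without overlap, 7 mitosis genes were above and 1 was below, where 17.8% and 18.0% of all genes were. At an unadjusted edgeR p under 0.05, where 2.85% of all genes were higher and 3.05% lower, there were 2 mitosis genes, both higher. These were MKI67, the proliferation marker Ki-67, with 610.7 and 538.5 CPM in the knockout libraries, against 355.3 and 420.2 CPM in wild type, and NDC80, a kinetochore protein, with 83.3 and 69.5 CPM in the knockout libraries, against 54.2 and 56.5 CPM in wild type. Neither gene overlapped. In the E2F and RB family the median was 0.04, 1 of 11 genes was above (9.09%) and 3 below (27.3%) without overlap, and 1 gene had an unadjusted p under 0.05, E2F8, an atypical E2F repressor, with 26.9 and 29.9 CPM in the knockout libraries, against 21.5 and 16.98 CPM in wild type.

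**Figure D4:**
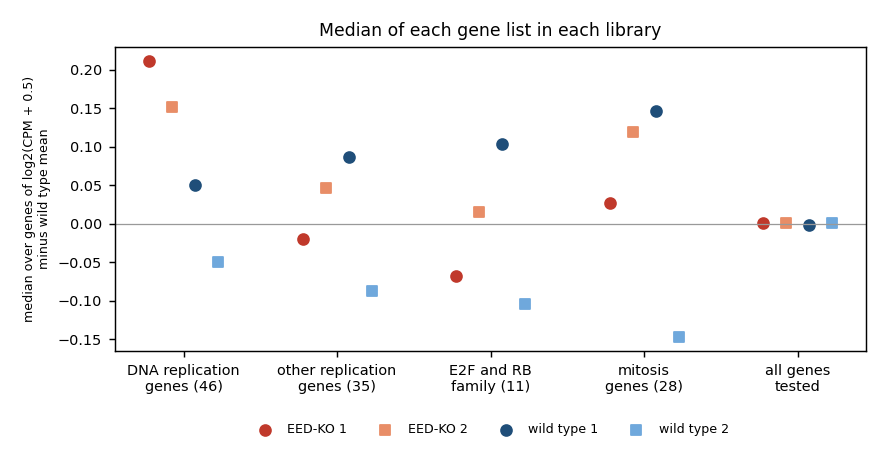
Median over the genes of each list of log2(CPM + 0.5) minus its wild type mean, with 1 point per library, for the 46 DNA replication genes, 35 other replication genes, 11 E2F and RB family genes, 28 mitosis genes and all genes tested. The replication genes are at 0.21 and 0.15 in the 2 EED-knockout libraries and at 0.05 and -0.05 in wild type, while in the other 3 lists a wild type library holds the highest point.

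The plot of list medians by library sets the 46 genes beside these lists. Their median was 0.21 in EED-knockout 1 and 0.15 in EED-knockout 2, against 0.05 in wild type 1 and -0.05 in wild type 2. The knockout libraries were apart from the wild type libraries for the 46 genes. For the mitosis genes the medians were 0.03 and 0.12 in the knockout libraries, against 0.15 and -0.15 in wild type, so the knockout libraries lay between the wild type libraries. The difference between lists was not tested.

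Fold changes of the 46 genes moved with those of their chromosome arms. Over the 46 genes, which lie on 26 arms, the log2 fold change correlated with the median shift of all genes on the arm with a Pearson's r of 0.667 and a Spearman's rho of 0.638, a description over genes that share these 4 libraries. Of the 30 genes on arms that were higher in the knockout libraries, 25 had a fold change above 0, with a median of 0.28 on the log2 scale. Of the 16 on arms that were lower, 11 were below 0, with a median of -0.13. Chromosome 22, with MCM5 and CDC45, had arm medians of 0.25 and -0.01 in the knockout libraries, against -0.20 and -0.04 in wild type, and 6p, with GMNN, MCM3 and PRIM2, had -0.24 and 0.07 in the knockout libraries, against 0.12 and 0.04 in wild type.

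**Figure D5:**
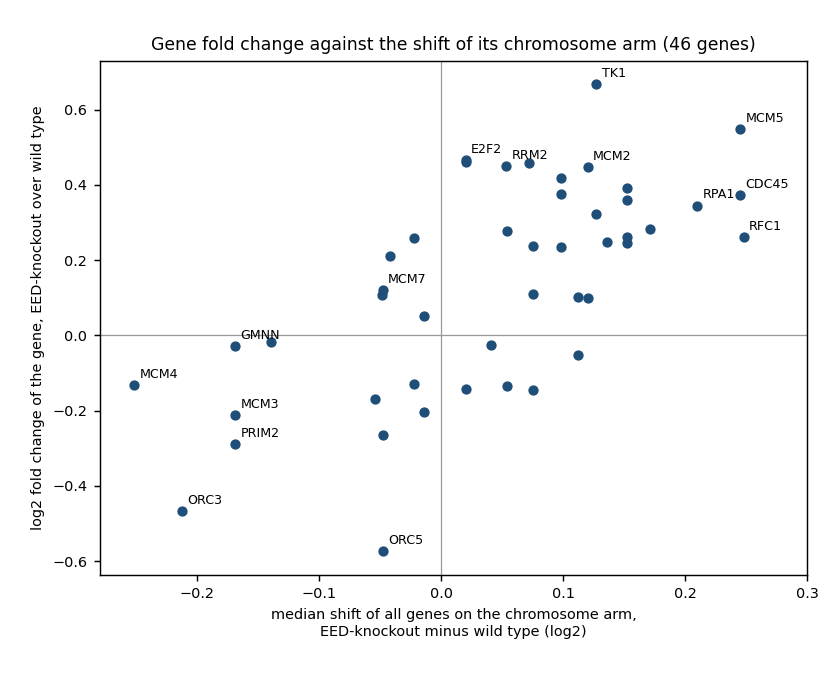
Log2 fold change of each of the 46 genes (EED-knockout over wild type, vertical axis) against the median log2 shift of all genes on its chromosome arm (horizontal axis), 1 point per gene. The points run from ORC3 and MCM4 on arms that were lower in the knockout libraries to MCM5, CDC45 and RFC1 on arms that were higher, with TK1 and ORC5 away from the trend.

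With each arm centred in each library, 15 of the 46 genes lay above and 5 below without overlap, where 18.0% and 18.9% of all genes did so. The log2 fold change after centring was 0.55 for TK1, 0.39 for E2F1, 0.44 for ORC1 and -0.53 for ORC5, close to the values before it. It was 0.30 for MCM5 and -0.01 for PCNA.

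GC content moved with the fold changes as well, with a Pearson's r of 0.442 over the 46 genes and 0.263 over 14394 genes above 1 CPM in every library. The 16 genes of highest GC content (51.6% to 65.0%) had a median log2 fold change of 0.31, and the 15 of lowest (39.4% to 43.8%) one of -0.03. The wild type libraries differed by GC content too, with an r of -0.52 between the GC content of the 46 genes and the log2 ratio of wild type 1 over wild type 2. After a correction for GC content and length in each library the median of the 46 genes was 0.21 and the r 0.129. The part of chromosome arms and GC content in the result was not tested beyond these values.

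The median log2 fold change was 0.237 over the 21 genes with an E2F word, 0.235 over the 19 without one and -0.075 over the 6 with no window, and the difference was not tested. Both knockout libraries were above in 11 of the 21 genes with the word, in 8 of the 19 without it and in 2 of the 6 with no window, where 17.8% of all genes were.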

How the data were processed

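Per the labels' protocols, total RNA came from a TRIZOL extraction with an RNeasy clean-up, and an Illumina RNA-seq kit was used for the libraries. The deposited estimated counts and the deposited TPM values are per transcript, from kallisto 0.43.1 with hg38, per the submitters' processing notes. The sources used here do not give its run settings or the GENCODE release. Counts of all transcripts of a gene were added and rounded. Kallisto assigns reads shared by similar transcripts with a model, which makes overlapping genes less certain.

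The main test was the quasi-likelihood F test in edgeR 4.0.16 under R 4.3.3 (TMM factors, filterByExpr with a minimum count of 10 and total of 15, no covariate), which tested 18349 genes, with Benjamini-Hochberg adjustment over all of them, a threshold of 0.05 and 95% intervals. DESeq2 1.42.0 ran on the same genes and called 68 of all genes, 26 higher and 42 lower. Tests were two-sided and were tried on simulated data with 200 genes changed. At a 2-fold change edgeR recovered 6.5% of these genes and DESeq2 26.5%, with 6 and 26 false calls. At a 4-fold change they recovered 67% and 74.5%. A lack of calls among all genes tested therefore says little about changes of 2-fold or less. For the replication genes the 95% intervals say more. On the log2 scale they reached a 2-fold change only for MCM5 (upper bound 1.15), TK1 (1.14), E2F2 (1.13) and ORC5 (lower bound -1.04). Each taken singly, the intervals of the remaining replication genes left out a 2-fold change in either direction, but not smaller changes. Alternatives, with limma 3.58.1 among the tools, covered size factors, filter, tool, unit, length, replicate block, library left out, chromosome arm, and GC content with length. Arm positions came from GENCODE 29 on GRCh38, with 57836 of 58174 genes placed, and tables were made in Python 3.11.15. A fit on 3 libraries assumes that the lone one varies as the remaining pair does.

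The members and lists were chosen with earlier results of these data known. Genes were named by a rule: MCM2 to MCM7, PCNA, E2F1 and E2F2, genes with an unadjusted edgeR p under 0.05 or a DESeq2 adjusted p under 0.05, and in each role those of highest and lowest fold change and of highest TPM, plus transcripts of these genes with at least 10% of the gene's counts and an unadjusted p under 0.05. Other genes named were added after their values were seen. Totals of 17836112 to 19106382 counts make the floor of 3 counts equal to 0.157 to 0.168 CPM, covering counting error only.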

Additional observations from a re-analysis of the deposited data

How the results depend on the processing

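No replication gene passed the adjusted threshold, higher or lower, under any of the 15 alternatives (0 and 0 genes). The median log2 fold change of the 46 genes, 0.223 as reported, was 0.122 with length-scaled TPM counts and 0.116 with chromosome arms centred; leaving out 1 library gave 0.115 to 0.212, the lowest without wild type 2, and the cause was not tested. The median stayed above 0 under every alternative run, and the others ran up to 0.275. The labels name no shared source for libraries of the same replicate number. Deviations of same-numbered libraries correlated at -0.163, and with 2 libraries per genotype this value cannot decide whether they were prepared together. With the replicate block the median was 0.223 and 2 of the 46 genes, rather than 3, had an unadjusted edgeR p under 0.05. Counts of genes without overlap were recomputed by settings added after seeing the data. Leaving out 1 library gave 23 to 28 genes above, for 21 as reported, and 4 to 12 below, for 4 as reported. With 3 libraries, 27.8% to 38.5% of all genes were above and 28.4% to 38.7% below, against 17.8% and 18.0% with all 4, so these counts are not comparable with the 21 and 4. TPM gave 22 above and 3 below (23.4% and 12.9% of all genes), and centred arms 15 and 5 (18.0% and 18.9%). Of the 28 members named by the rule, 20 kept the sign of their fold change under all 15 alternatives and 8 did not (GINS1, GMNN, LIG1, MCM3, MCM4, PCNA, POLD2 and RFC1). With 2 libraries per genotype, the typical interval leaves room for differences of about the size measured in either direction.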

Other observations

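POLE2, the second subunit of polymerase epsilon, is added here after its values were seen. Its gene-level CPM was 17.1 and 21.0 in the knockout libraries, against 18.7 and 14.2 in wild type, and overlapped. The transcript POLE2-001 made up 69.4% and 44.1% of its estimated counts in the knockout libraries, against 11.9% and 51.4% in wild type. Another protein-coding transcript, POLE2-012, made up 15% and 29.4% in the knockout libraries, against 56.7% and 27.9% in wild type. Wild type 1 stood apart from the other 3 libraries for both transcripts, and POLE2-001 had a log2 fold change of 1.15 with a 95% interval of -0.59 to 2.89.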
